A study of Mus musculus with 16 samples.

Results

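The genes described here are 34 mouse genes known from textbook knowledge as genes of the vascular endothelium, the cells that line blood vessels, measured in primary podocytes, the epithelial cells that wrap the capillaries of the kidney's filter. They were found by name: a spot of the array belonged to a member when its accession or symbol led to one of the 34 gene symbols or to a synonym of it, and each gene is represented by its brightest detected probe. All 34 were on the array, which held 22917 named genes. Of the 34, 32 were bright enough to be tested, among 14094 genes tested in all. *Aplnr*, the apelin receptor, and *Lyve1*, a hyaluronan receptor of lymphatic vessels, were well above background on 0 of 16 arrays and were not tested.

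Endothelial cells hold together through cadherin and claudin junctions, carry surface proteins such as *Pecam1* and *Emcn*, and depend on growth factor signals received by the receptor tyrosine kinases *Kdr*, *Flt1*, *Flt4*, *Tek* and *Tie1*. Their identity is set largely by ETS factors such as *Erg* and *Fli1* together with the SOX factors *Sox7*, *Sox17* and *Sox18*. In the glomerulus the podocyte is a main source of *Vegfa*, the ligand of *Kdr*, and the capillary endothelium lies on the other side of a shared basement membrane. Endothelial cells and podocytes are therefore isolated together when glomeruli are collected.

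The arrays came from male Jcl:ICR mice. All carried the floxed *Tsc2* allele on both chromosomes, so that *Tsc2*, a brake on the growth kinase complex mTORC1, could be cut by Cre. In the Tsc2Δpodocyte group a Cre transgene active in podocytes deleted it, and the Tsc2flox/flox group had no Cre. Each genotype gave 4 samples at 4 weeks of age without treatment and 4 samples at 5 weeks of age, 1 week after treatment with rapamycin, an inhibitor of mTORC1, for 16 samples in all. Glomeruli were taken out with magnetic beads and grown on collagen, and RNA came from the cells that grew out, which are called podocytes in the labels. The sources do not say whether the samples came from separate mice or pools, so each p-value speaks for the spread between these cultures alone, which may be technical. The untreated samples filled 1 slide and the treated samples another, so that rapamycin, the week of age, slide and scan cannot be told apart. On both slides row 1 held the Tsc2Δpodocyte samples and row 2 the Tsc2flox/flox samples, so that row and genotype cannot be told apart.

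Levels are on the log2 scale, as the background-subtracted signal relative to the 75th percentile of its array, so that 0 is the level of that percentile. That percentile was a signal of 349 to 468, between 28696 and 32918 of 59305 spots were well above background on an array, and no spot was saturated. A gene was called when it differed by at least 1.5-fold with an adjusted p under 0.05. *Tsc2* was lower in the Tsc2Δpodocyte samples, with a log2 difference of -1.35 without treatment (adjusted p = 0.00097 from limma) and -0.99 after rapamycin (adjusted p = 0.0124) for the brighter of its probes. Of 10 podocyte genes, 9 were well above background on all 16 arrays and *Nphs1*, a slit diaphragm gene, on 15. The endothelial genes were measured in the same cultures, and 26 of the 32 tested members were above background on all 8 untreated arrays and 21 on all 16.

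The endothelial genes varied more between samples of one group than most genes did. Within groups the median SD was 1.12 for the 32 tested members, against 0.20 for all tested genes. The spread lay mainly in the untreated samples, with a median SD of 1.23 in Tsc2Δpodocyte and 1.61 in Tsc2flox/flox samples, and of 0.48 and 0.54 in the same genotypes after rapamycin. For all genes these medians lay between 0.17 and 0.20 in each group.

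Most members were high or low on the same arrays. Among untreated Tsc2Δpodocyte samples, replicate 3 was the highest for 29 of 32 members (22.5% of all genes) and replicate 2 the lowest for 24 (28% of all genes). Among untreated Tsc2flox/flox samples, replicate 1 was the highest for 28 members (27.1% of all genes) and replicate 3 the lowest for 31 (23.6% of all genes). The median deviation of the members from their group mean was 1.80 on Tsc2Δpodocyte replicate 3, -1.01 on replicate 2, 1.60 on Tsc2flox/flox replicate 1 and -2.24 on replicate 3, while the median deviation of all genes stayed between -0.04 and 0.04 on every array. These are descriptions of 4 arrays a group, and members measured on 1 array share its RNA.

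Junction and surface genes such as *Cdh5*, *Emcn* and *Pecam1*, receptors such as *Tie1* and *Robo4*, and transcription factors such as *Erg* and *Sox17* followed this order alike. Of the 32 members, 26 were highest on Tsc2Δpodocyte replicate 3, highest on Tsc2flox/flox replicate 1 and lowest on Tsc2flox/flox replicate 3, an order that 392 of 14081 genes with all values showed (2.78%). In these 26, Tsc2flox/flox replicate 1 exceeded replicate 3 by a median of 4.04 on the log2 scale (lowest 1.15 for *Fli1*, highest 4.95 for *Mmrn2*), and Tsc2Δpodocyte replicate 3 exceeded replicate 2 by a median of 2.86. Over all genes the same differences had medians of -0.01 and -0.08. The arrays in this order were picked from the members' own values, so the counts describe the pattern and test nothing.

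The 6 members outside this order were *Cldn5*, *Ehd3*, *Vwf*, *Gpihbp1*, *Flt4* and *Apold1*. *Flt4*, the receptor for VEGF-C, was highest on Tsc2Δpodocyte replicate 3, at -3.43, but on Tsc2flox/flox replicate 4, at -3.28. *Cldn5*, a claudin of endothelial tight junctions, was at the same level on Tsc2flox/flox replicates 1 and 3, at -2.76 on both. *Ehd3*, an endocytic recycling protein that is concentrated in the glomerular endothelium, spanned 0.12 to 1.14 over all 16 arrays. *Gpihbp1*, which carries lipoprotein lipase on capillary endothelium, was lowest on the Tsc2Δpodocyte array where most members were highest. *Vwf*, the von Willebrand factor, was above background on 3 of 4 untreated Tsc2Δpodocyte arrays and on 0 of 4 untreated Tsc2flox/flox arrays. *Apold1*, an endothelial gene of early responses, followed the order on the Tsc2Δpodocyte arrays but was highest on Tsc2flox/flox replicate 2, at -2.08.

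**Figure D1:**
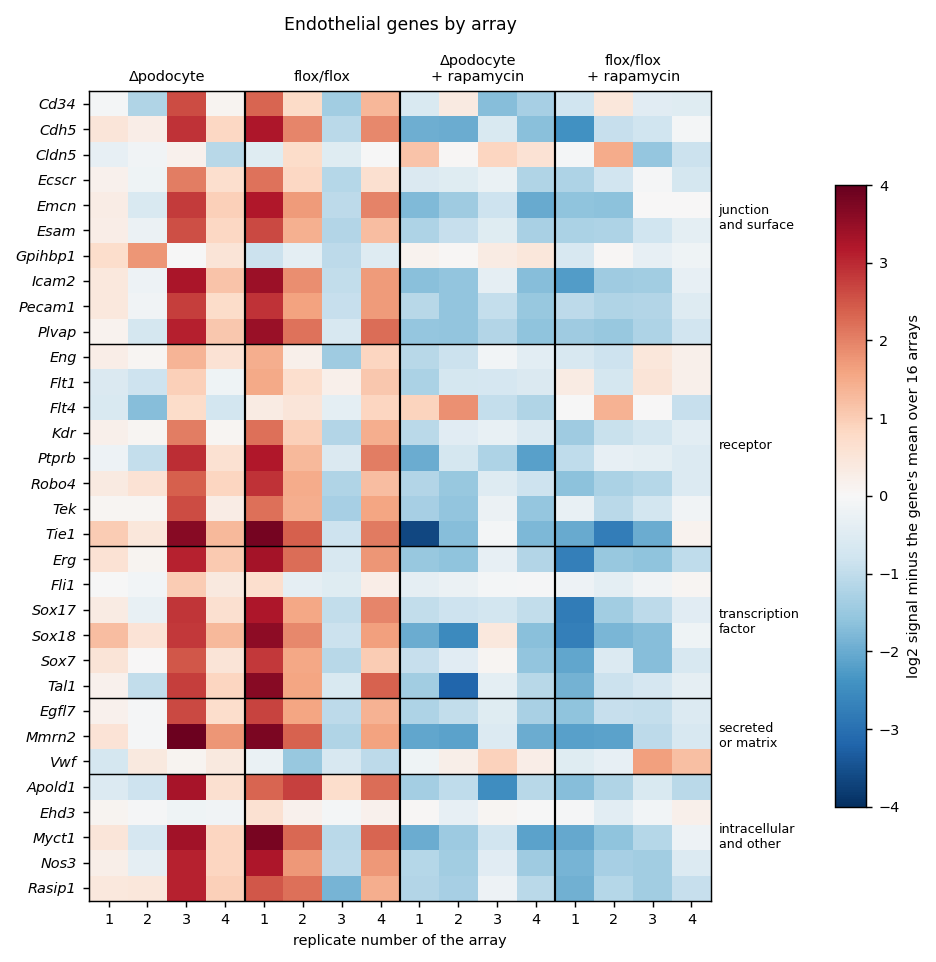
Each row is a tested endothelial gene, grouped by role, and each column an array, numbered by replicate within its group. Colour gives the log2 signal minus the gene's mean over 16 arrays, from blue (lower) to red (higher). Tsc2Δpodocyte replicate 3 and Tsc2flox/flox replicate 1 are red and Tsc2flox/flox replicate 3 is pale or blue for most rows, and the treated columns are mostly blue, while *Cldn5*, *Ehd3*, *Gpihbp1*, *Vwf* and *Flt4* differ from that.

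**Figure D2:**
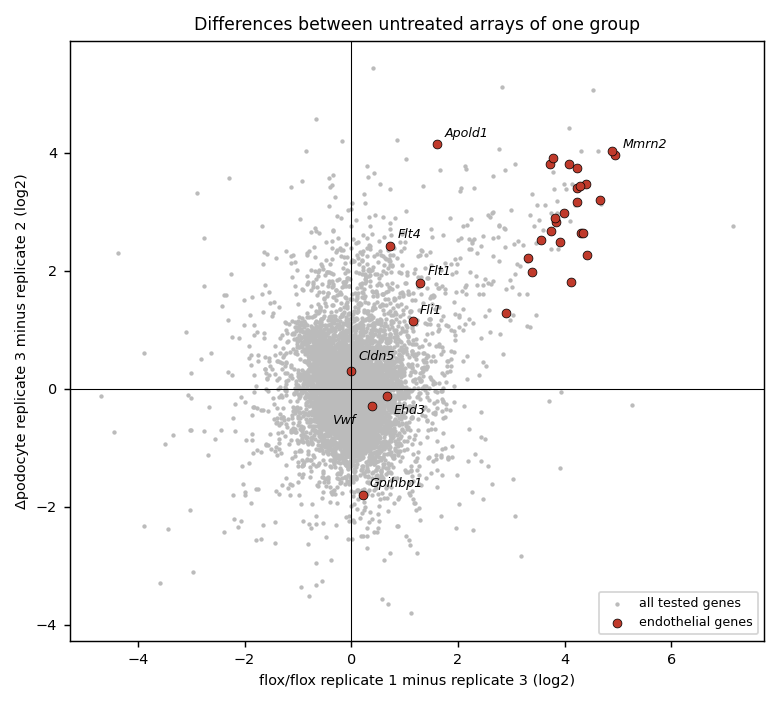
For each tested gene the horizontal axis gives the log2 difference between untreated Tsc2flox/flox replicates 1 and 3, and the vertical axis that between untreated Tsc2Δpodocyte replicates 3 and 2. Grey points are all tested genes and red points the 32 endothelial genes, of which the 26 with the shared order lie at positive values on both axes and *Cldn5*, *Ehd3* and *Vwf* among the bulk of genes.

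The promoters of members with and without the shared order were set side by side. RefSeq (GRCm38.p6) promoters were given for 17 of the 34 genes, 22 promoters in all, and the 250 bases before each start were searched. The letters searched were CAGGAA and CCGGAA, which ETS factors bind, and ACAAAG and ACAATG, which SOX factors bind, on both strands. The 4 below were chosen after their values were seen, *Emcn* and *Tie1* as members with the shared order, *Cldn5* and *Ehd3* as members without it. They lie before the gene, except for the last 16 bases of the *Emcn* window, and run 5′ to 3′ on the strand of the gene. Capitals mark matches to CAGGAA or its reverse complement. *Emcn* lies at chr3:137340828-137341077 on the plus strand, *Tie1* at chr4:118489850-118490099 on the minus strand, *Cldn5* at chr16:18776597-18776846 and *Ehd3* at chr17:73804591-73804840 on the plus strand.
Emcn: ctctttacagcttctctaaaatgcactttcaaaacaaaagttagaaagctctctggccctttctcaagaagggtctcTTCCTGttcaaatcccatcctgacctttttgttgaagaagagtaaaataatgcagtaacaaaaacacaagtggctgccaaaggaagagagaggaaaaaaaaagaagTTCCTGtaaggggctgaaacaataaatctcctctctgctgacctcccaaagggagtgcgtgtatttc
Tie1: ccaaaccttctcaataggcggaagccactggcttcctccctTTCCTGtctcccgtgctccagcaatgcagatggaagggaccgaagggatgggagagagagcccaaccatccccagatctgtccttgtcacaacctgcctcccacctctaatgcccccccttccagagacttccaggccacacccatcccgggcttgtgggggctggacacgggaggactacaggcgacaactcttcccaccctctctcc
Cldn5: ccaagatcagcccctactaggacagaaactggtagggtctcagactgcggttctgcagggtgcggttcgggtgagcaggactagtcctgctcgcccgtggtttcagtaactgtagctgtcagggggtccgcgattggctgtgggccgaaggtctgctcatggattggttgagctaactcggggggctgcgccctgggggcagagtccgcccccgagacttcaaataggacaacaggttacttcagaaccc
Ehd3: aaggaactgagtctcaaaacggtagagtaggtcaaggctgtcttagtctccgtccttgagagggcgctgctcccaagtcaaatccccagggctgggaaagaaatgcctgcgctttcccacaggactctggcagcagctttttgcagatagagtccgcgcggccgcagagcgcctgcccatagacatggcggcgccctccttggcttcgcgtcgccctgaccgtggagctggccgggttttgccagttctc

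*Emcn* held 2 matches and *Tie1* held 1, while *Cldn5* and *Ehd3* held 0. Of 13 members with a promoter and the shared order, 10 held ETS letters in at least 1 promoter, against 1 of the 4 without it, *Apold1*. Among the 10, *Erg*, *Kdr*, *Robo4* and *Tek* held them only in windows that reach 70 to 250 bases into the annotated gene. The 3 members with more than 1 promoter, *Egfl7*, *Erg* and *Tal1*, all had the shared order. No such share by gene was counted over all genes. Counted by promoter, ETS letters stood in 12 of 22 (54.5%), or in 7 of the 13 (53.8%) that reach no more than 30 bases into the annotated gene, against 35.1% of all 32851 promoters in the table. SOX letters stood in 4 of 22 (18.2%), or in 1 of those 13 (7.69%), against 25.2% of all promoters. A match is only a run of letters and not a site shown to be bound, and promoters of the other 17 members were not examined.

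In untreated samples, 1 of the 32 tested members differed between the genotypes. *Gpihbp1* was higher in Tsc2Δpodocyte samples, while *Pecam1*, *Cdh5*, *Kdr*, *Tek*, *Emcn* and *Cldn5*, the 6 markers fixed as defining, had fitted differences between -0.62 and -0.21 on the log2 scale that did not pass the test. Among all tested genes 10% were called in this comparison, 6.17% as higher and 3.85% as lower. The median log2 difference of the members was -0.29 (all genes -0.01).

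*Gpihbp1* was -2.77, -1.71, -3.50 and -2.95 in the Tsc2Δpodocyte samples and -4.33, -3.88, -4.54 and -4.01 in the Tsc2flox/flox samples. Every Tsc2Δpodocyte sample was above every Tsc2flox/flox sample, an order that 13.5% of all genes showed in this direction. The log2 fold change of 1.45 (standard error 0.29) is 2.74-fold (adjusted p = 0.00398 from limma). It was 1.11 to 1.71 when any 1 untreated array was left out, with adjusted p between 0.00126 and 0.0126.

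*Pecam1*, a surface adhesion molecule of endothelial contacts, was -2.98, -3.55, -0.65 and -2.67 in Tsc2Δpodocyte samples and -0.50, -1.79, -4.33 and -1.69 in Tsc2flox/flox samples. *Cdh5*, the cadherin of endothelial junctions, was -0.48, -0.69, 1.95 and -0.11 against 2.28, 1.01, -2.02 and 0.96. For both genes the Tsc2flox/flox values reached above and below all the Tsc2Δpodocyte values. Fewer endothelial cells in a culture and less RNA of these genes per cell cannot be told apart in such bulk samples.

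*Emcn*, a sialomucin of venous and capillary endothelium, was 3.19, 2.29, 5.68 and 3.84 in Tsc2Δpodocyte samples and 6.10, 4.60, 1.87 and 4.90 in Tsc2flox/flox samples. *Cldn5* was -2.58, -2.40, -2.10 and -3.38 against -2.76, -1.52, -2.76 and -2.27. The groups overlapped for both, over a range of more than 4 for *Emcn* and less than 2 for *Cldn5*. The log2 difference was -0.62 for *Emcn* (95% interval -2.38 to 1.15) and -0.29 for *Cldn5* (-1.41 to 0.83).

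Among the receptors, *Kdr*, the main VEGF receptor of endothelial cells, was -1.37, -1.48, 0.49 and -1.49 in Tsc2Δpodocyte samples and 0.64, -0.60, -2.75 and -0.12 in Tsc2flox/flox samples. *Tek*, the angiopoietin receptor, was -4.37, -4.35, -1.83 and -4.15 against -2.22, -3.00, -5.77 and -2.86, with 3 of 4 Tsc2flox/flox arrays above background. In both genes 1 Tsc2Δpodocyte sample stood near the highest Tsc2flox/flox samples and the other 3 lay between the lowest and the rest. *Flt1*, a VEGF receptor that also exists as a soluble decoy, was 0.23 ± 0.79 against 1.25 ± 0.55 (SD, n = 4 each), a log2 difference of -1.02 (standard error 0.38, adjusted p = 0.0753). It passed as lower when Tsc2Δpodocyte replicate 3 was left out (-1.39, adjusted p = 0.0129) or Tsc2flox/flox replicate 3 was (-1.24, adjusted p = 0.0468). *Eng*, a co-receptor for BMP9 and TGF-β, had the highest fitted difference of the receptors, at 0.29 (adjusted p = 0.736).

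None of the 6 transcription factors was called, their log2 differences lying between -1.05 for *Tal1* and 0.29 for *Fli1*. The secreted genes *Egfl7* and *Mmrn2*, which are laid down in the vascular matrix, had differences of -0.29 and -0.09. *Vwf* was -4.77 in Tsc2Δpodocyte and -5.69 in Tsc2flox/flox samples as measured, with overlapping values, and did not pass (adjusted p = 0.17 from limma). With the dim Tsc2flox/flox signals set at the background limit, the fold between the means was 1.1. The surface genes *Plvap*, *Cd34*, *Icam2*, *Esam* and *Ecscr* had differences between -0.90 and 0.06, and the receptors *Tie1*, *Robo4*, *Ptprb* and *Flt4* between -0.91 and -0.06. *Ehd3* had a difference of -0.28 (adjusted p = 0.214). *Nos3*, the endothelial nitric oxide synthase, *Rasip1*, a Ras-interacting protein needed for vessel lumens, and *Myct1* had differences of -0.46, 0.16 and -0.83. *Apold1* had the lowest of all, at -1.37 (adjusted p = 0.208), with 2 of 4 Tsc2Δpodocyte arrays above background, and passed as lower when Tsc2Δpodocyte replicate 3 was left out (-2.25, adjusted p = 0.0099).

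The untreated comparison turned on 3 arrays. Without Tsc2Δpodocyte replicate 3, Tsc2flox/flox replicate 1 and Tsc2flox/flox replicate 3 together, 11 members were called, *Gpihbp1* higher and 10 lower, where 6.02% and 3.24% of all genes were called. The median log2 difference of the members was then -1.32. Without the first pair alone, the brightest of each genotype for most members, 3 were called (9.79% of all genes). These arrays were left out because of the members' own levels, so the counts show how far the result rests on them and support no direction.

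**Figure D3:**
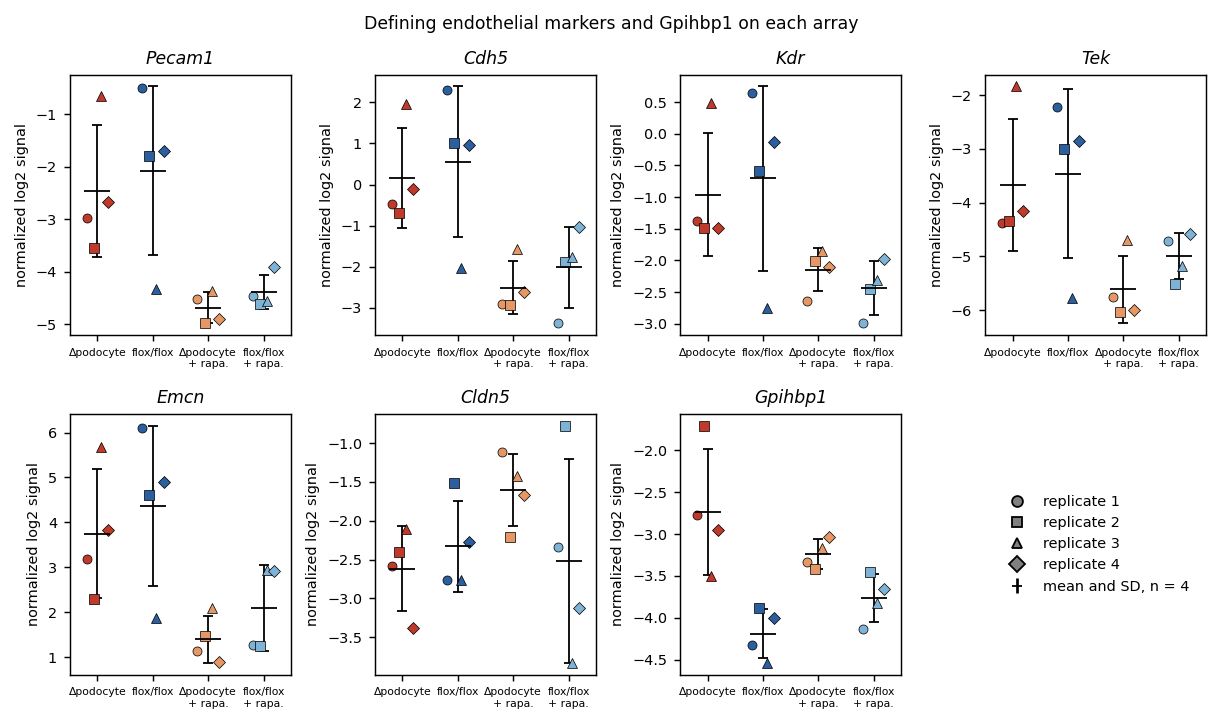
Normalized log2 signal of the 6 defining markers and of *Gpihbp1* on each array, with 1 panel a gene and its own axis. Marker shapes give the replicate number, and bars the mean and SD of 4 arrays. The untreated Tsc2flox/flox samples span 3.39 to 4.31 on the log2 scale for *Pecam1*, *Cdh5*, *Kdr*, *Tek* and *Emcn*, and *Gpihbp1* is the gene whose untreated groups do not overlap.

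After rapamycin most members had lower values in both genotypes, and none passed the test. In Tsc2Δpodocyte samples 28 of the 32 had a fitted log2 change below 0, with a median of -2.00 (all genes 0.01), and in Tsc2flox/flox samples 30 of the 32, with a median of -2.27 (all genes 0.00). Called members were 0 in Tsc2Δpodocyte samples, where 1.57% of all genes were called, and 0 in Tsc2flox/flox samples, where 0.114% were. At an unadjusted p under 0.05 from limma, 23 members were lower in each genotype, against 11% and 7.61% of all genes, and 1 member, *Vwf*, was higher in Tsc2flox/flox samples (8.25% of all genes). By the methods' t-test without adjustment 20 members passed in Tsc2Δpodocyte and 17 in Tsc2flox/flox samples (5.82% and 2.97% of all genes), and 0 with adjustment. With *Apold1*, whose change in Tsc2Δpodocyte samples is a lower bound, set at that bound the median there was -1.91. By limma the lowest adjusted p was 0.073 in Tsc2Δpodocyte samples, for *Tie1* and *Mmrn2*, and 0.0756 in Tsc2flox/flox samples, for *Erg*.

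Of the 32 members, 8 passed the filter on dim probes only through an untreated group, a filter that favours genes with high untreated values. The counts without adjustment above include such members, *Erg*, *Tie1* and *Sox18* among them in each genotype. In the limma counts at an unadjusted p under 0.05, all of the 8 but *Flt4* were lower in each genotype. These were *Erg*, *Tek*, *Tie1*, *Apold1*, *Sox7*, *Sox18* and *Tal1*. Among all genes, the share without those that passed only through an untreated group was not counted. What remains of each count therefore has no background to be read against. *Erg* and *Tie1*, named for the lowest adjusted p, are also such members, while *Mmrn2* is not. The stricter filter left 21 members, of which 0 were called with rapamycin. Their lowest adjusted p from limma was 0.0625 in Tsc2Δpodocyte and 0.0952 in Tsc2flox/flox samples. Over the 21 members above background on all 16 arrays the medians were -1.88 and -2.05 (all such genes 0.01 and -0.0025). The rapamycin samples of each genotype are compared with untreated samples of another slide and age. The call rests on the shared estimate of spread: without untreated Tsc2flox/flox replicate 3, which is not one of the Tsc2Δpodocyte samples compared, 7 members (*Cdh5*, *Mmrn2*, *Pecam1*, *Rasip1*, *Robo4*, *Sox18* and *Tie1*) passed as lower in Tsc2Δpodocyte samples, where 0.859% of all genes did, with the same fitted changes. Without untreated Tsc2Δpodocyte replicate 3, *Apold1* passed as lower in Tsc2flox/flox samples (adjusted p = 0.0433 from limma). Of the members that passed in these 2 fits, *Sox18*, *Tie1* and *Apold1* had passed the filter only through an untreated group. The 2 left-out arrays stand apart by the members' own levels, being the lowest of its group for 31 and the highest for 29 members. These passes show how far the calls rest on them and support no direction.

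In Tsc2Δpodocyte samples the 4 treated values lay below all 4 untreated values for 21 members, where 6.37% of all genes did so. In Tsc2flox/flox samples this held for 3 members, *Erg*, *Plvap* and *Apold1*, where 5.21% of all genes did so. *Erg* and *Apold1* passed the filter only through an untreated group and were above background on 0 treated Tsc2flox/flox arrays. Over the 21 members above background on all 16 arrays, the counts were 14 in Tsc2Δpodocyte and 1 in Tsc2flox/flox samples. The shares of 6.37% and 5.21% are of all tested genes. The matching shares of genes above background on all 16 arrays were not counted, so these counts have no background to be read against. Untreated Tsc2flox/flox replicate 3 lay within or below the range of the treated samples of that genotype for *Pecam1*, *Cdh5*, *Kdr*, *Tek* and *Emcn*.

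Treated *Pecam1* values were -4.52, -4.97, -4.37 and -4.91 in Tsc2Δpodocyte samples, with 2 of 4 arrays above background, and -4.46, -4.61, -4.57 and -3.91 in Tsc2flox/flox samples. Treated *Cdh5* values were -2.91, -2.93, -1.57 and -2.60 and, in Tsc2flox/flox samples, -3.37, -1.88, -1.75 and -1.03. In Tsc2Δpodocyte samples the treated values of both genes were below every untreated value, and in Tsc2flox/flox samples they were on both sides of untreated replicate 3. The log2 changes of *Pecam1* were -2.23 (standard error 0.68, adjusted p = 0.0804) in Tsc2Δpodocyte and -2.31 (0.68, adjusted p = 0.139) in Tsc2flox/flox samples, and those of *Cdh5* were -2.67 (0.81, adjusted p = 0.0783) and -2.57 (0.81, adjusted p = 0.159).

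Treated *Kdr* values were -2.64, -2.01, -1.85 and -2.10 in Tsc2Δpodocyte samples and -2.99, -2.45, -2.30 and -1.99 in Tsc2flox/flox samples. Treated *Tek* values were -5.76, -6.03, -4.69 and -5.99 and, in Tsc2flox/flox samples, -4.72, -5.52, -5.18 and -4.58, with 1 and 2 arrays above background. Treated Tsc2Δpodocyte samples lay below the untreated ones for both receptors. The changes were -1.19 and -1.73 for *Kdr* (adjusted p = 0.258 and 0.194) and -1.94 and -1.54 for *Tek* (adjusted p = 0.123 and 0.297).

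Treated *Emcn* values were 1.14, 1.48, 2.09 and 0.89 in Tsc2Δpodocyte samples and 1.28, 1.25, 2.93 and 2.91 in Tsc2flox/flox samples. *Emcn* was thus still above the 75th percentile of each treated array. Treated *Cldn5* values were -1.11, -2.21, -1.42 and -1.67 in Tsc2Δpodocyte samples and -2.34, -0.78, -3.83 and -3.12 in Tsc2flox/flox samples. *Cldn5* had the highest fitted change of all members in Tsc2Δpodocyte samples, at 1.01 (adjusted p = 0.271), and -0.19 in Tsc2flox/flox samples. *Emcn* had changes of -2.35 (adjusted p = 0.117) and -2.27 (adjusted p = 0.211).

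Treated *Gpihbp1* values were -3.34, -3.42, -3.16 and -3.03 in Tsc2Δpodocyte samples and -4.13, -3.45, -3.82 and -3.65 in Tsc2flox/flox samples. The treated Tsc2Δpodocyte values lay within the untreated range of that genotype, and 3 of the 4 treated Tsc2flox/flox values lay above every untreated one. The fitted change was -0.51 in Tsc2Δpodocyte and 0.42 in Tsc2flox/flox samples (adjusted p = 0.32 and 0.487).

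Among the other receptors *Tie1*, the orphan partner of *Tek*, had fitted changes of -3.41 and -3.52, with 1 treated array of each genotype above background. *Robo4*, an endothelial receptor of the Slit receptor family, had changes of -2.05 and -2.26, and *Ptprb*, the phosphatase that acts on *Tek*, of -2.13 and -2.05. *Eng* had changes of -1.19 and -0.49, *Flt1* of -0.65 and -0.77, and *Flt4* of 0.73 and -0.20. None of these passed the test.

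The transcription factors *Sox18*, *Erg*, *Tal1*, *Sox17* and *Sox7* had fitted changes from -2.93 to -1.60 in Tsc2Δpodocyte samples, and all of these but *Erg* from -3.17 to -2.31 in Tsc2flox/flox samples. *Fli1*, which blood cells also express, had -0.50 and -0.19. *Erg* was at least 6.76-fold lower in treated than untreated Tsc2flox/flox samples (-5.77 against -2.38 as measured, adjusted p = 0.0756), none of the treated arrays being above background. *Sox18* passed in Tsc2Δpodocyte samples when their treated replicate 3, its brightest treated array at -3.52, was left out (adjusted p = 0.0489 from limma). In treated Tsc2Δpodocyte and Tsc2flox/flox samples, *Sox18* was above background on 1 and 1 arrays, *Tal1* on 1 and 2, and *Sox7* on 3 and 2. These 3 and *Erg* passed the filter only through an untreated group, so their changes are taken against dim treated signals.

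Of the surface genes, *Plvap*, which forms the diaphragms of endothelial fenestrae, and *Icam2* had changes of -2.38 and -2.49 in Tsc2Δpodocyte samples, and -3.04 and -2.85 in Tsc2flox/flox samples. *Cd34*, which other progenitor and stromal cells also carry, had -1.17 and -1.08. *Esam* and *Ecscr* lay between, at -1.84 and -1.31 in Tsc2Δpodocyte samples and -1.95 and -1.30 in Tsc2flox/flox samples. The matrix genes *Mmrn2* and *Egfl7* had changes of -3.23 and -1.88, and -3.14 and -2.17. *Vwf* was -4.31 in treated against -5.69 in untreated Tsc2flox/flox samples as measured (adjusted p = 0.176 from limma), with overlapping values and 3 treated arrays above background. With the dim untreated signals set at the background limit, the fold was 1.51.

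*Nos3*, *Myct1* and *Rasip1* had changes from -2.59 to -2.05 in Tsc2Δpodocyte and from -3.08 to -2.41 in Tsc2flox/flox samples, while those of *Ehd3* were 0.00 and -0.31. *Apold1* was at least 2.34-fold lower in treated Tsc2Δpodocyte samples (-6.31 against -4.19 as measured, 2 of 4 untreated arrays above background, adjusted p = 0.11) and at least 4.96-fold lower in treated Tsc2flox/flox samples (-5.97 against -2.82, adjusted p = 0.0817). Without the 3 untreated arrays named above, 6 members were called lower in Tsc2Δpodocyte samples and 15 in Tsc2flox/flox samples, where 0.738% and 0.319% of all genes were. The median log2 changes of the members were then -1.31 and -2.52. Those arrays were picked by the members' own levels, so these counts and medians show how far the result rests on them and support no direction.

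**Figure D4:**
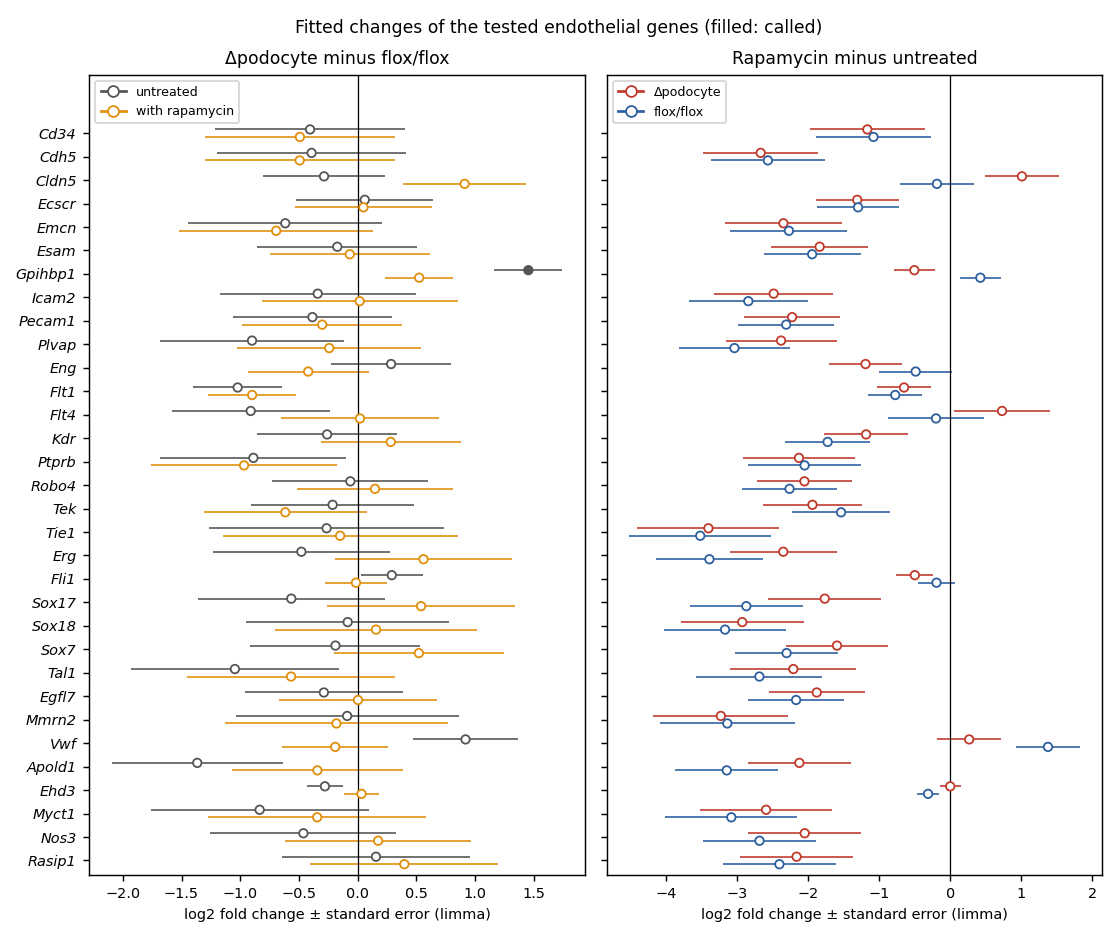
Fitted log2 fold change of each tested endothelial gene with its standard error, Tsc2Δpodocyte against Tsc2flox/flox on the left and rapamycin against untreated on the right. Filled points are called genes, of which *Gpihbp1* in the untreated comparison is the single one. On the right most points of both genotypes lie between -1 and -3.52. *Cldn5*, *Gpihbp1*, *Flt4*, *Vwf*, *Ehd3*, *Flt1* and *Fli1*, and *Eng* in Tsc2flox/flox samples, are nearer to 0 or above it.

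**Figure D5:**
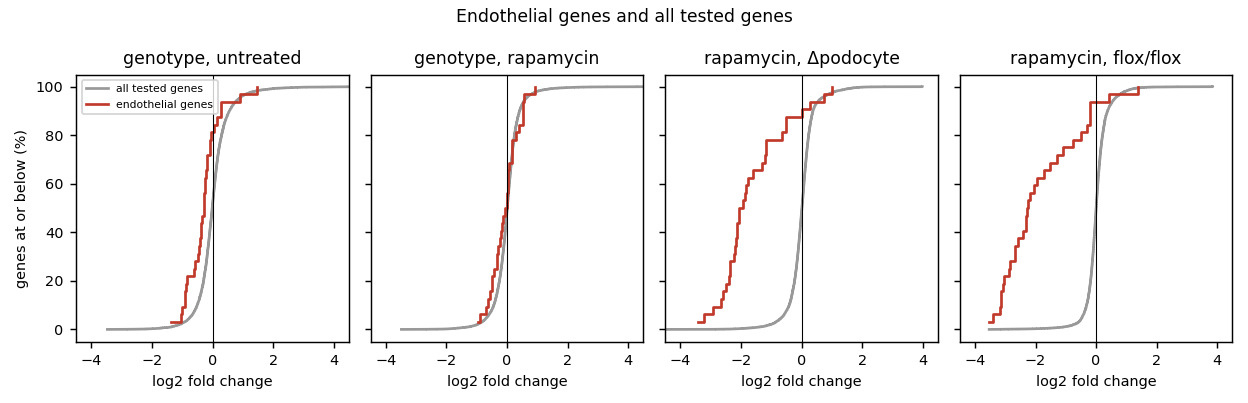
Share of genes at or below each log2 fold change, for the 32 endothelial genes (red) and all 14094 tested genes (grey), in 4 comparisons. The red curve lies left of the grey curve after rapamycin in each genotype, with medians of -2.00 and -2.27, and near it in the genotype comparisons, with medians of -0.29 and -0.04.

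Between the genotypes after rapamycin, 0 members were called by limma, where 5.58% of all genes were, and 1 was lower at an unadjusted p under 0.05 (12.6% of all genes). That was *Flt1*, at -0.42 ± 0.32 in Tsc2Δpodocyte and 0.47 ± 0.54 in Tsc2flox/flox samples (SD, n = 4 each), a log2 difference of -0.90 (standard error 0.38, adjusted p = 0.145). The methods' t-test without adjustment passed 2 members, *Ptprb* and *Flt1* (7.54% of all genes). The *Gpihbp1* values of the treated genotypes did not overlap, as for 10.7% of all genes in this direction, with a difference of 0.52 (adjusted p = 0.271). *Cldn5*, at 0.91 (adjusted p = 0.291), was called when treated Tsc2flox/flox replicate 2 was left out (adjusted p = 0.0367). The 95% intervals of the defining markers all held 0, with -2.46 to 1.07 for *Emcn* and -0.21 to 2.03 for *Cldn5*.

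The change with rapamycin was not shown to differ between the genotypes. By limma 0 of 32 members were called for the interaction, as were 0% of all genes. At an unadjusted p under 0.05 there was 1 member, *Gpihbp1*, with a log2 difference of the changes of -0.93 (standard error 0.41, adjusted p = 0.667), where 3.39% of all genes were lower.

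Other genes of endothelial biology were read from lists of 40 further endothelial genes and 21 ligands that act on the endothelium. Of the 34 further endothelial genes tested, 2 were called higher and 4 lower in untreated Tsc2Δpodocyte samples, where 10% of all genes were called. *Tspan18* and *Ephb4*, the venous partner of *Efnb2*, had log2 differences of -1.38 and -1.61 (adjusted p = 0.00583 and 0.0134), *Efnb2*, the arterial ephrin, had -0.72 (adjusted p = 0.00424) and *Nrp2*, a co-receptor for VEGF-C, 0.60 (adjusted p = 0.00837). The remaining calls, *Prox1* as lower and *Lmo2* as higher, are named after their values were seen. After rapamycin, 1 gene was called higher and 1 lower between the genotypes (*Nrp2* and *Tspan18*), *Prox1* was called higher in Tsc2Δpodocyte samples against untreated ones, and 0 in Tsc2flox/flox samples. The order of arrays shared by most members, with a range over 2 in the untreated Tsc2flox/flox samples, was found for 125 of 14081 genes with all values. They included 24 of the 32 members and 12 of the 34 further endothelial genes tested. Among the 12 were *Cd93*, *Calcrl*, *Ramp2*, *Notch4* and *S1pr1*, named after their values were seen, while genes such as *Efnb2* and *Nrp2* were not.

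Among 17 tested ligands, 3 were called higher and 2 lower in untreated Tsc2Δpodocyte samples, where 6.17% and 3.85% of all genes were. *Vegfa*, which signals through *Kdr*, was higher by 1.04 (standard error 0.21, adjusted p = 0.00398), *Vegfd*, a ligand of *Flt4*, by 1.45 (adjusted p = 0.00329) and *Vegfb*, a ligand of *Flt1*, by 0.86 (adjusted p = 0.00637). *Efnb2* is on both lists, and *Efna1*, named after its value was seen, had a difference of -0.99 (adjusted p = 0.0229). The receptors *Kdr*, *Flt1* and *Flt4* had differences of -0.26, -1.02 and -0.91 in the same comparison, none of which passed. *Cxcl12* between the treated genotypes and *Slit2* after rapamycin in Tsc2Δpodocyte samples were called lower, at -1.94 and -1.46, and are also named after their values were seen.

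Markers of other cells were read on the same arrays, as the sum of their linear signals relative to the 75th percentile. For the 6 defining endothelial markers, it was 6.18 to 57.8 in untreated Tsc2Δpodocyte, 4.26 to 75.9 in untreated Tsc2flox/flox, 2.62 to 5.33 in treated Tsc2Δpodocyte and 2.93 to 8.49 in treated Tsc2flox/flox samples. *Emcn* alone made up 68.4 to 92.3% of this sum, and without it the other 5 gave 1.3 to 6.41, 0.611 to 7.5, 0.642 to 1.08 and 0.503 to 1.1. Of the 6, *Pecam1* was above background on 14 of 16 arrays, *Tek* on 10 and the other 4 on 16. The 10 podocyte genes gave 87.4 to 202, 61 to 101, 89.6 to 211 and 77.9 to 117. Their sum was highest, in its group, on untreated Tsc2Δpodocyte replicate 2 and Tsc2flox/flox replicate 3, the arrays with the lowest endothelial sums, and on treated Tsc2Δpodocyte replicate 3, which had the highest.

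The 9 tested macrophage and leukocyte genes gave 11.5 to 17.4, 8.57 to 17.8, 11.7 to 16.1 and 11.4 to 18.7, all groups overlapping, with *Cd68* called higher in untreated Tsc2Δpodocyte samples (1.03, adjusted p = 0.019). The 9 mesangial and smooth muscle genes gave 578 to 817, 561 to 656, 590 to 665 and 521 to 627, of which *Tagln* and *Acta2* carried 95.6 to 97.9%, and the 6 parietal epithelial genes 30 to 113, 66 to 155, 78.7 to 279 and 89 to 329, of which *Krt18* and *Krt8* carried 66.5 to 92.7%. Both tested platelet genes, *Pf4* and *Ppbp*, gave sums of 2.6 to 22.1 over the 16 arrays, while *Gp9* was above background on 0 arrays and *Itga2b* on 3. The red cell gene *Hba-a1* was called higher in untreated Tsc2Δpodocyte samples, where 4 of 4 arrays were above background, against 0 of 4 untreated Tsc2flox/flox arrays. It passed the filter only through the group in which it was high, so its call is taken against signals not told from background. In the untreated genotype comparison 1 of 10 podocyte, 2 of 9 mesangial and 0 of 6 parietal genes were called higher, and 2 parietal genes lower, where 6.17% of all genes were called higher and 3.85% lower. Between the treated genotypes 2 podocyte and 1 mesangial gene were called higher and 2 parietal genes lower, where 5.58% of all genes were called.

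With rapamycin 1 gene of these lists was called, the smooth muscle myosin *Myh11*. It was -2.02, -2.02, -1.74 and -1.67 in untreated and -4.04, -4.21, -4.08 and -4.48 in treated Tsc2Δpodocyte samples, a log2 change of -2.34 (adjusted p = 0.0173), so that its groups did not overlap. In Tsc2flox/flox samples its change was -1.66 (adjusted p = 0.103). At an unadjusted p under 0.05, 5 of the 9 macrophage and leukocyte genes were higher in treated Tsc2flox/flox samples (8.25% of all genes), with *Cd68* at 0.94, *Lyz2* at 1.58, *Tyrobp* at 1.10 and *Ptprc* at 1.02 (adjusted p = 0.136, 0.159, 0.176 and 0.238). In Tsc2Δpodocyte samples 0 of the 9 were. The part of any of these cells in the values of the endothelial genes was not tested.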

How the data were processed

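RNA of 16 samples of primary podocytes was hybridised to one-colour Agilent mouse arrays, 1 sample an array. The deposited scanner files hold, per the file headers, the processed signal intensity of each spot, background-subtracted by the authors with Agilent Feature Extraction 10.7.3.1. The authors' own normalized log2 values were deposited as a table of the series and served as an alternative.

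Control spots and 1344 outlier spots were left out, spots of a probe were averaged, and log2 intensity minus that of the array's 75th percentile was analysed. Of 56605 probes, 33024 matched a gene. A probe entered the test when every array of some group had it well above background, which left 27578 probes for limma 3.58.1 (R 4.3.3) on 4 group means over 16 arrays, with Benjamini-Hochberg adjustment over all tested probes. A call needed a fold of at least 1.5, the methods' threshold, and an adjusted p under 0.05. The brightest tested probe stood for a gene. A fold against a group in which no array was above background is a lower bound on the fold between the group means. It is set by the dimmest signal well above background on each array and takes no account of the spread between samples. Called members and the 6 defining markers are given array by array, other members by means or ranges, and up to 4 genes of each other list by the smallest p. The number of arrays limits the precision. The scripts were tested on simulated data.

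The members, lists and tests were chosen with earlier results of these data known. The methods' t-test, an alternative, is the one the study names for comparing pairs of groups in general, and no test for the arrays is given in the sources used here. Other alternatives covered background correction, normalization, filters, the probe rule, the replicate block and left-out arrays. Some genes of these lists are not reported here.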

Additional observations from a re-analysis of the deposited data

Results flagged for a closer look

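In 5 of 128 sets of 4 values, 1 for each tested member and group, the highest array stood apart from the other 3 by more than Dixon's 95% limit, which chance passes in about 1 of 20 sets. In untreated Tsc2Δpodocyte samples this was replicate 3 for *Kdr*, whose gap to the next array was 0.94 of the range, and for *Tek*, at 0.912. In treated Tsc2Δpodocyte samples it was replicate 3 for *Plvap* (0.888), *Icam2* (0.911) and *Mmrn2* (0.904).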

How the results depend on the processing

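*Gpihbp1* stayed called as higher in untreated Tsc2Δpodocyte samples under 22 of 23 alternatives, with log2 differences of 0.73 to 1.71, and was lost under the methods' t-test with adjustment (adjusted p = 0.0719). In that comparison the number of called members was 2 after normexp background correction (*Gpihbp1* and *Flt1*), 0 by the methods' t-test with adjustment and 2 by it without adjustment, where 12.1% of all genes passed. It was 1 to 3 when any 1 of the 16 arrays was left out, 3 without the 2 brightest untreated arrays and 11 without the 3 that stood apart. Those arrays, and leaving out arrays of groups outside a comparison, were chosen after seeing the data. Between treated genotypes the count was 0 to 1 with 1 array left out and 2 by the methods' t-test without adjustment (7.54% of all genes). With rapamycin in Tsc2Δpodocyte samples it was 0 to 7 with 1 array left out (7 without untreated Tsc2flox/flox replicate 3, which shares the estimate of spread, and 1 without treated Tsc2Δpodocyte replicate 3), 20 by the t-test without adjustment (5.82% of all genes) and 6 without the 3 arrays. In Tsc2flox/flox samples it was 0 to 1 with 1 array left out (*Apold1* without untreated Tsc2Δpodocyte replicate 3), 17 by the t-test without adjustment (2.97% of all genes) and 15 without the 3 arrays. For the interaction it was 0 under all 28 alternatives run, and the methods' t-test and the fit on 8 arrays, which compare 2 groups, were not run for it. The cause of these differences was not tested. The shared order of arrays held for 26 members under 4 alternatives and for 18 of the 21 members left by the stricter filter. With the replicate block the counts of called members were 1, 0, 0, 0 and 0, with lowest adjusted p of 0.00386, 0.154, 0.676, 0.111 and 0.129. Same-numbered samples of the genotypes had correlations of their deviations from the group means of -0.295 to -0.00545 without treatment and -0.0227 to 0.464 with rapamycin. Not every pair was above 0.1 in either, and no label links the numbers, so they were not taken as pairs.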
